A study of Mus musculus with 6 samples.

Results

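The 40 transcripts described here encode the enzymes and carriers by which mitochondria take up pyruvate, turn it through the tricarboxylic acid (TCA) cycle, refill that cycle and exchange reducing equivalents with the cytosol. They were taken by gene symbol from a table of 24421 rows and comprise the pyruvate dehydrogenase complex with its kinases and phosphatase, 14 TCA cycle genes, anaplerotic and pyruvate-cycling enzymes, the malate-aspartate and glycerol phosphate shuttles, and a pair of carriers, for citrate and for dicarboxylates. All 40 were found in the table, and 36 passed the expression filter of 5 TPM in at least 3 libraries. The values are TPM, transcript abundance scaled to gene length and to the library total, within the limits given below for that scaling.

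The 6 RNA-seq libraries came from tdTomato-positive islet β cells sorted from mice aged 7 weeks on a mixed C57BL/6J and 129SV background, 3 labelled control and 3 labelled βDKO. Control animals were MIP-CreERT with Brg1f/+ and Brm+/-, so they too carried 1 floxed Brg1 allele and 1 null Brm allele. The βDKO animals were MIP-CreERT with Brg1f/f and Brm-/-. Every animal had received tamoxifen and carried a Cre-dependent tdTomato allele at the Rosa26 locus. Brg1 (Smarca4) and Brm (Smarca2) are alternative catalytic subunits of Swi/Snf, which remodels chromatin. MIP-CreERT is driven by the mouse insulin promoter, so Brg1 is deleted in β cells, whereas the Brm allele is null in every cell. The transgene, known to carry a growth hormone sequence, was present in both groups. The comparison addresses which β-cell transcripts depend on Swi/Snf. The labels do not say whether numbered samples were separate animals, so p-values cover only how far these samples spread, and some of that spread may be technical.

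In β cells, glucose is metabolised largely in mitochondria because little pyruvate is turned into lactate. Pyruvate enters the TCA cycle as acetyl-CoA through pyruvate dehydrogenase or as oxaloacetate through pyruvate carboxylase, and the surplus leaves as citrate, malate or isocitrate. Exported citrate is split by ATP citrate lyase, and exported malate and isocitrate yield cytosolic NADPH through malic enzyme and isocitrate dehydrogenase. Cytosolic NADH is reoxidised by the malate-aspartate and glycerol phosphate shuttles.

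Whole reads were recovered from the TPM values, with the relative worth of 1 read in each library taken from low values. They summed to 25389124 to 31282333 per library. That gives the relative depth of the libraries only, since each gene's reads are known up to a common factor. Recovered reads per TPM, which should scale with gene length, were within 1.2 times of that expected from the longest annotated transcript for 50.3% of 9710 genes, but 1.98 to 2.01 times it for Acly, Pcx, Idh1, Me1, Gpd2, Slc25a10 and Slc25a13, 4.99 times for Pdp1, 8.09 times for Ogdh, and 0.462 to 0.505 times for Pdk2, Suclg1 and Slc25a12. The cause was not tested. Levels and ratios between genes may be off by such factors, which cancel when 1 gene, or 1 ratio, is compared between groups. The filter of 5 TPM acts on these levels, so the factors may also affect which genes were tested. Ins1 and Ins2 together took 42.6% to 48.3% of TPM in controls and 6.37% to 8.93% in βDKO, and because TPM sums to a fixed total, a smaller insulin share leaves a larger share to the other genes. The median log2 change of the 10404 genes tested was 0.83 on TPM and 0.03 after the libraries were rescaled by median-of-ratios factors, which set the typical gene to no change. Both scales are therefore given, and a gene is said to rise or fall where it passed adjusted p = 0.05 in the same direction on both. All 11 β-cell markers examined were detected in both groups, 8 of them lower and 2 higher in βDKO on TPM and all 11 lower after rescaling. Smarca4 (Brg1) was at 8.997, 13.5 and 12.4 TPM in controls and at 10.6, 10.5 and 11.4 TPM in βDKO, and Smarca2 (Brm) at 14.1, 27.5 and 26.6 and at 25.0, 23.2 and 22.45 TPM. Both overlapped between the groups on TPM and were lower after rescaling (log2 −0.86 and −0.71, limma adjusted p = 5.62e-04 and 0.0101). These gene totals also count exons outside a deleted stretch, so they do not check the labels. The 3 βDKO libraries lay closer to each other than the controls did, and βDKO 1 and βDKO 2 were the closest pair, with an SD of 0.16 between their log2 values while other same-group pairs gave 0.29 to 0.48.

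Most of the 36 tested transcripts were higher in βDKO on TPM, as most genes were, and once rescaled more of them were called lower than higher. On TPM, 29 were higher and 4 lower in βDKO, beside 81.4% higher and 4.61% lower among all genes tested. After rescaling, 3 were higher and 13 lower, beside 23.4% and 21.1% of all genes, and 20 were not called, beside 55.5%. In TPM, 30 did not overlap between groups and were higher in βDKO (83.2% of all genes) and 4 were lower (4.82%); after rescaling these were 4 (31%) and 16 (27%). The 3 that rose on both scales were Idh1, Slc25a12 and Pdk3 (background 23.4%), and the 4 that fell on both were Acly, Pcx, Gpd1 and Idh2 (background 4.61%). Another 6, namely Aco1, Cs, Fh1, Pdha1, Slc25a1 and Suclg1, were called higher on TPM yet lower once rescaled, against 6.28% of all genes. The median log2 change of the 36 was 0.66 on TPM and −0.17 after rescaling. Their rescaled changes ran from −1.78 to 0.61 with an SD of 0.53, against an SD of 0.84 over all genes. The tests were limma's empirical Bayes test with Benjamini-Hochberg adjustment over the 10404 genes.

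**Figure D1:**
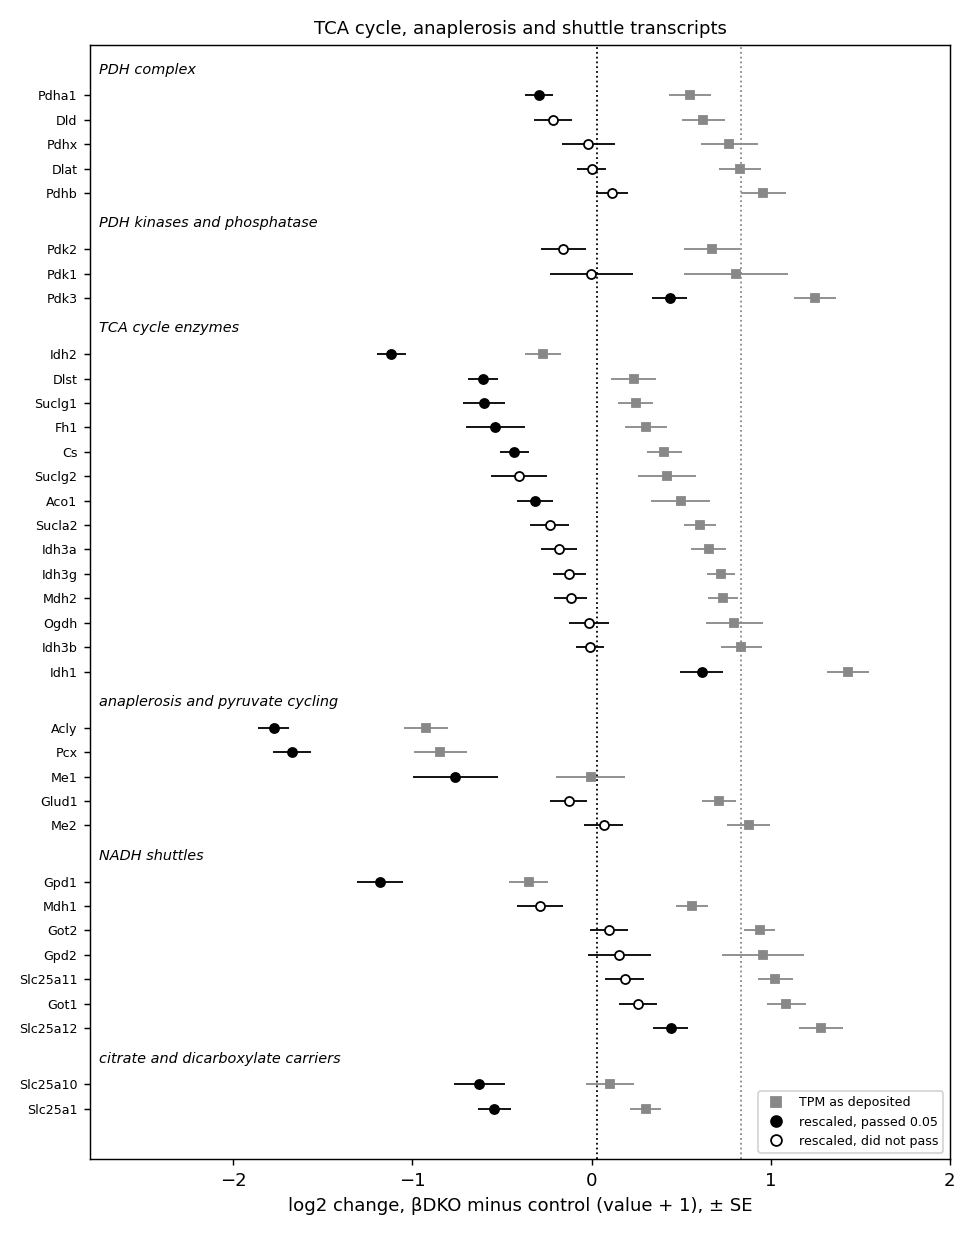
Log2 change of value + 1 (βDKO minus control, horizontal axis, ± SE) for the 36 tested transcripts, grouped by role. Grey squares are TPM as deposited and circles are rescaled values, filled where adjusted p was under 0.05; dotted lines mark the medians of all tested genes, 0.83 and 0.03. Acly, Pcx, Gpd1 and Idh2 lie below 0 on both scales, and the only filled circles above 0 are those of Idh1, Slc25a12 and Pdk3.

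Among the 36 tested transcripts, the largest falls were in the enzyme that splits exported citrate and in the enzyme that carboxylates pyruvate. Acly (chromosome 11, 100476353 to 100528000, mm10), ATP citrate lyase, stood at 326, 451 and 419.5 TPM in the control libraries, numbered 1 to 3, against 208, 203 and 211.5 TPM in the βDKO libraries. No βDKO value reached the control range, and the βDKO libraries were nearly equal to each other. Mean Acly fell from 399 ± 65.1 to 207 ± 4.37 TPM (SD, n = 3), 1.92-fold on TPM and 3.44-fold after rescaling, with log2 changes of −0.93 (SE 0.12, limma adjusted p = 2.38e-04) and −1.78 (SE 0.09, adjusted p = 4.73e-06). Its share of the summed deposited TPM of the 40 transcripts went from 14.5% ± 1.27 to 5.64% ± 0.143.

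Pcx (chromosome 19, 4510472 to 4621752), pyruvate carboxylase, the anaplerotic entry of pyruvate, was at 44.7, 62.5 and 51.9 TPM in controls and at 30.5, 30.3 and 25.9 TPM in βDKO. Every βDKO library was below every control. The fall was 1.84-fold on TPM (log2 −0.84, SE 0.15, limma adjusted p = 9.39e-04) and 3.29-fold after rescaling (log2 −1.67, SE 0.11, adjusted p = 1.51e-05). Both Acly and Pcx kept their calls on either scale when any 1 library was left out, Acly between −1.07 and −0.83 and Pcx between −0.96 and −0.72 on TPM.

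Carriers that move citrate and dicarboxylates across the inner membrane did not share that fall on TPM. Slc25a1, the citrate carrier, was at 124, 143 and 134 TPM in controls and at 162, 170.4 and 163 TPM in βDKO, higher on TPM (log2 0.30, limma adjusted p = 0.0106) and lower after rescaling (log2 −0.54, adjusted p = 0.00214). Without βDKO 2 its TPM call was lost (adjusted p = 0.053). Slc25a10, the dicarboxylate carrier, averaged only 5.77 ± 0.273 TPM in control and 6.27 ± 0.22 TPM in βDKO libraries (SD, n = 3), a difference in log2 of 0.10 (adjusted p = 0.476) on TPM and −0.63 (adjusted p = 0.00890) after rescaling.

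Among the malic enzymes, which turn malate into pyruvate, only Me1 passed a test downward, and only after rescaling. Me1, the cytosolic NADPH-forming enzyme, was at 10.3, 7.64 and 6.07 TPM in controls and at 8.18, 7.16 and 8.10 TPM in βDKO. The TPM values overlapped and gave a log2 change of −0.01 (limma adjusted p = 0.980), while the rescaled change was −0.76 (SE 0.24, adjusted p = 0.0321). That rescaled call was lost without control 2 or any 1 of the βDKO libraries (adjusted p = 0.0588 to 0.0922). Me2, the mitochondrial NAD-dependent enzyme, averaged 14.2 ± 1.06 TPM in control and 26.9 ± 0.196 TPM in βDKO libraries (SD, n = 3), a change of 0.88 (adjusted p = 2.90e-04) on TPM and 0.07 (95% interval −0.19 to 0.32) after rescaling. Me3, the mitochondrial NADP-dependent enzyme, did not pass the filter, with 28 to 151 reads per library and 0.530 to 2.07 TPM. Glud1, glutamate dehydrogenase, which makes 2-oxoglutarate from glutamate, was at 56.3 ± 2.60 and 93.0 ± 5.44 TPM, higher on TPM by 0.71 (adjusted p = 2.38e-04) with a rescaled change of −0.13 (95% interval −0.37 to 0.12).

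**Figure D2:**
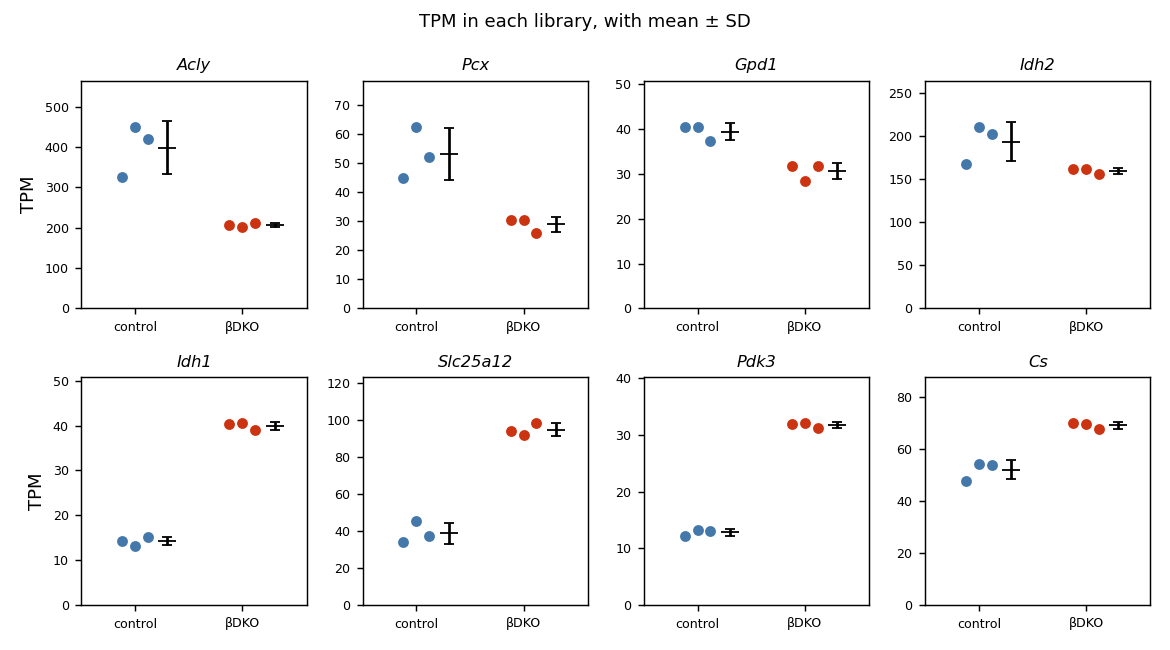
TPM (vertical axes, each from 0) in every library for the 7 transcripts that rose or fell on both scales. Cs, a TCA cycle enzyme called higher on TPM yet lower once rescaled, is also shown. Coloured points are single libraries and black bars the mean ± SD of 3. In all 8 panels the groups do not overlap, and Acly, Pcx, Gpd1 and Idh2 are lower in βDKO.

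The NADP-dependent isocitrate dehydrogenases moved in opposite directions. Idh1 (chromosome 1, 65158616 to 65186500), the cytosolic and peroxisomal NADP-dependent enzyme, was at 14.4, 13.3 and 15.04 TPM in controls and at 40.3, 40.6 and 39.01 TPM in βDKO. It rose 2.81-fold on TPM (log2 1.43, SE 0.12, limma adjusted p = 2.60e-05) and 1.55-fold after rescaling (log2 0.61, SE 0.12, adjusted p = 0.00466), the largest rise of the 36 on either scale. Idh2 (chromosome 7, 80094846 to 80115392), its mitochondrial counterpart, was at 168, 211.5 and 203 TPM in controls and at 162, 162 and 156 TPM in βDKO. The fall was 1.21-fold on TPM (log2 −0.27, SE 0.10, adjusted p = 0.0354) and 2.18-fold after rescaling (log2 −1.12, SE 0.08, adjusted p = 2.69e-05). On TPM the Idh2 call was lost without control 2, control 3 or any 1 of the βDKO libraries (adjusted p = 0.0804 to 0.113) and with βDKO 1 and βDKO 2 averaged (0.0797), whereas after rescaling it ran only from −1.14 to −1.10 when a library was left out.

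The subunits of the NAD-dependent isocitrate dehydrogenase, the TCA cycle enzyme itself, stayed close to the general shift. Idh3a, Idh3b and Idh3g were higher on TPM by 0.65, 0.84 and 0.72 on the log2 scale (limma adjusted p = 9.55e-05 to 4.29e-04), and their rescaled changes were −0.18, −0.01 and −0.12, none past the threshold. Control and βDKO means were 162 and 267 TPM for Idh3g, 90.6 and 162 TPM for Idh3b, and 37.1 and 58.9 TPM for Idh3a. Aco1, the cytosolic aconitase that also acts as iron regulatory protein, was at 18.4 ± 3.74 and 26.0 ± 0.254 TPM (SD, n = 3), with changes of 0.50 (limma adjusted p = 0.0201) on TPM and −0.32 (adjusted p = 0.0346) after rescaling. Without control 2 or control 3, or any 1 of the βDKO libraries, its rescaled call was lost (adjusted p = 0.0551 to 0.142).

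Around the rest of the cycle, Cs, Dlst, Suclg1 and Fh1 were lower after rescaling, and none of these was lower on TPM. Cs, citrate synthase, was at 47.7, 54.2 and 53.9 TPM in controls and at 70.04, 69.5 and 67.7 TPM in βDKO, a change of 0.41 (limma adjusted p = 0.00462) on TPM and −0.43 (adjusted p = 0.00381) after rescaling. Dlst, the succinyltransferase subunit of the 2-oxoglutarate dehydrogenase complex, had changes of 0.24 (adjusted p = 0.108) and −0.61 (adjusted p = 8.08e-04), while Ogdh, the complex's decarboxylating subunit, had 0.80 (adjusted p = 0.00193) and −0.02 (95% interval −0.27 to 0.24). Suclg1, the shared subunit of succinyl-CoA synthetase, averaged 121.5 ± 10.7 TPM in control and 144 ± 7.83 TPM in βDKO libraries, with changes of 0.25 (adjusted p = 0.0399) on TPM and −0.60 (adjusted p = 0.00426) after rescaling.

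The partner subunits of succinyl-CoA synthetase set its nucleotide, Sucla2 ADP and Suclg2 GDP. Sucla2 was at 57.0 ± 1.82 and 87.2 ± 3.49 TPM and Suclg2 at 28.9 ± 2.65 and 39.4 ± 7.41 TPM (SD, n = 3), both higher on TPM and neither past the threshold after rescaling, although Sucla2 passed there with hormone transcripts left out of the scaling (adjusted p = 0.0429, limma). In Suclg2, βDKO 3 stood at 30.8 TPM, within the control range of 26.7 to 31.8 TPM, against 43.8 and 43.6 TPM in the other βDKO libraries. Fh1, fumarase, was at 98.6 ± 8.999 and 122 ± 15.1 TPM, a change of 0.31 (limma adjusted p = 0.0371) on TPM and −0.54 (adjusted p = 0.0301) after rescaling, a call that was lost without control 3, βDKO 1 or βDKO 2 (adjusted p = 0.0509 to 0.102). Mdh2, mitochondrial malate dehydrogenase, was at 218, 257 and 235.5 TPM in controls and at 390.3, 396 and 394 TPM in βDKO, without overlap and higher on TPM only, with a rescaled change of −0.12 (95% interval −0.33 to 0.10). The TPM calls of Suclg1, Suclg2, Fh1 and Aco1 were each lost in at least 3 of the 6 fits that left out a library (adjusted p = 0.0528 to 0.137).

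Transcripts of the pyruvate dehydrogenase complex, which makes acetyl-CoA from pyruvate, were all higher on TPM and close to the typical gene after rescaling. Pdha1, the catalytic α subunit, averaged 65.3 ± 8.71 TPM in control and 95.5 ± 4.31 TPM in βDKO libraries (SD, n = 3), which is 0.55 in log2 terms on TPM and −0.29 once rescaled (limma adjusted p = 0.0158). Without βDKO 1 or βDKO 2 that rescaled call was lost (adjusted p = 0.0602 and 0.0937). Pdhb, the β subunit, Dlat, the acetyltransferase, Dld, the dihydrolipoamide dehydrogenase shared with other complexes, and Pdhx, its binding protein, had rescaled changes between −0.22 and 0.11, none past the threshold. The change of Dld passed without control 2 (adjusted p = 0.0409, limma). Pdhb was at 113 ± 16.0 and 219 ± 17.9 TPM. Exons of Pdha1 overlap Map3k15 on the opposite strand, as exons of Idh3b, Me1, Me3, Mdh1, Got2, Gpd1, Gpd2, Slc25a11 and Slc25a10 overlap other genes. Whether counting used strand was not stated, so reads of such partners cannot be told apart.

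Of the pyruvate dehydrogenase kinases, which switch the complex off by phosphorylation, Pdk3 rose. Pdk3 (X chromosome, 93764607 to 93832201) was at 12.1, 13.3 and 13.1 TPM in controls and at 32.0, 32.1 and 31.2 TPM in βDKO, with little spread within either group. The rise was 2.48-fold on TPM (log2 1.25, SE 0.12, limma adjusted p = 4.81e-05) and 1.37-fold after rescaling (log2 0.44, SE 0.10, adjusted p = 0.00834), and both calls were kept when any 1 library was left out. Pdk1, a kinase induced by hypoxia-inducible factor, ran from 9.35 to 24.4 TPM over the controls and from 26.2 to 27.3 TPM over βDKO. Its TPM change of 0.81 (adjusted p = 0.0281) was lost in 5 of the 6 fits that left out a library (0.0533 to 0.0738). Pdk2, a kinase expressed in most tissues, was at 29.2 ± 3.68 and 47.3 ± 7.57 TPM, with a rescaled change of −0.16 (95% interval −0.45 to 0.13).

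Pdk4, a kinase induced in fasting, was near the limit of detection at 2.58, 1.41 and 0.902 TPM in controls and 0.947, 0.889 and 0.479 TPM in βDKO, which rest on 17 to 149 recovered reads per library. It was tested only with no filter, where it did not pass on either scale. The log2 change was −0.53 (limma adjusted p = 0.120) on TPM and −0.98 (adjusted p = 0.0645) after rescaling. Its rescaled mean was 4.03-fold lower in βDKO, without overlap between groups. Within the summed TPM of the 4 kinases, the share of Pdk3 went from 21.7% ± 2.54 to 29.9% ± 2.12 and that of Pdk4 from 2.94% ± 2.02 to 0.713% ± 0.189 (SD, n = 3). Neither share overlapped between groups, and each gave an exact two-sided permutation p = 0.1 (0.2 adjusted over 4 shares), the smallest that 3 against 3 samples allow. The shares of Pdk1 (26.0% and 25.2%) and Pdk2 (49.3% and 44.2%) overlapped. With recovered reads divided by the longest transcript, an alternative added after seeing the data, Pdk3 was at 27.7% ± 3.98 and 36.9% ± 1.80 and Pdk4 at 3.96% ± 2.77 and 0.927% ± 0.262, without overlap. That alternative only reweights the same values by a constant for each gene, so it is not a separate check. The reads are known per gene only up to a common factor, and those of Pdk2 per TPM were 0.505 times the expected number. The read-based shares may therefore be off in level. Pdp1, a phosphatase that reverses the kinases, was at 1.11 ± 0.211 and 2.08 ± 0.126 TPM and did not pass the filter. It had 244 to 492 recovered reads per library, at 4.99 times the expected reads per TPM, so its level may be off. With a filter of 1 TPM, Pdp1 was higher on TPM (log2 0.55, limma adjusted p = 0.0113) and 0.03 (adjusted p = 0.907) after rescaling.

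In the glycerol phosphate shuttle the cytosolic enzyme fell and the mitochondrial enzyme did not. Gpd1 (chromosome 15, 99717515 to 99725005), the cytosolic glycerol-3-phosphate dehydrogenase, was at 40.6, 40.4 and 37.3 TPM in controls and at 31.7, 28.5 and 31.8 TPM in βDKO. The groups did not overlap, and the fall was 1.29-fold on TPM (log2 −0.35, SE 0.11, limma adjusted p = 0.0162) and 2.34-fold after rescaling (log2 −1.18, SE 0.13, adjusted p = 2.43e-04). Its TPM call was lost without βDKO 2 (adjusted p = 0.0872) and with βDKO 1 and βDKO 2 averaged (0.0616). Gpd2, the FAD-linked enzyme of the inner membrane, ran from 8.68 to 17.4 TPM in controls and from 21.9 to 25.9 TPM in βDKO, with changes of 0.96 (adjusted p = 0.00472) on TPM and 0.15 (95% interval −0.25 to 0.56) after rescaling, the latter past the threshold without control 3 (adjusted p = 0.0371).

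In the malate-aspartate shuttle the carrier that exchanges aspartate for glutamate rose. Slc25a12 (chromosome 2, 71271063 to 71367749), known as aralar, the calcium-responsive carrier, was at 33.9, 45.2 and 37.05 TPM in controls and at 94.2, 91.8 and 98.5 TPM in βDKO. It rose 2.45-fold on TPM (log2 1.28, SE 0.12, limma adjusted p = 5.52e-05) and 1.36-fold after rescaling (log2 0.44, SE 0.10, adjusted p = 0.00806), and both calls were kept when any 1 library was left out. Its paralog Slc25a13, or citrin, was at 1.09 ± 0.389 and 1.90 ± 0.243 TPM (SD, n = 3) and did not pass the filter. With a filter of 1 TPM it was higher on TPM (log2 0.48, limma adjusted p = 0.0434) and at −0.02 (adjusted p = 0.946) after rescaling. The other members of the shuttle were higher on TPM, namely Slc25a11, the oxoglutarate-malate carrier (2.05-fold), the aspartate aminotransferases Got1 (2.17-fold) and Got2 (1.93-fold), and cytosolic malate dehydrogenase Mdh1 (1.47-fold). Mdh1 was at 258, 285 and 234 TPM in controls and at 375.0, 379 and 389.6 TPM in βDKO, Got1 at 26.4, 30.02 and 27.0 and at 59.5, 64.8 and 56.6 TPM, and Slc25a11 at 59.3, 68.95 and 57.9 and at 122, 129 and 130.3 TPM. Each was higher in every βDKO library than in every control, and none passed after rescaling, with log2 changes of 0.18, 0.26, 0.10 and −0.29. Got1 did not overlap between groups on either scale, and its rescaled change passed without control 1 (adjusted p = 0.0282). The rescaled change of Mdh1 passed without control 3 (adjusted p = 0.0191) and with hormone transcripts left out of the scaling (0.0330).

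**Figure D3:**
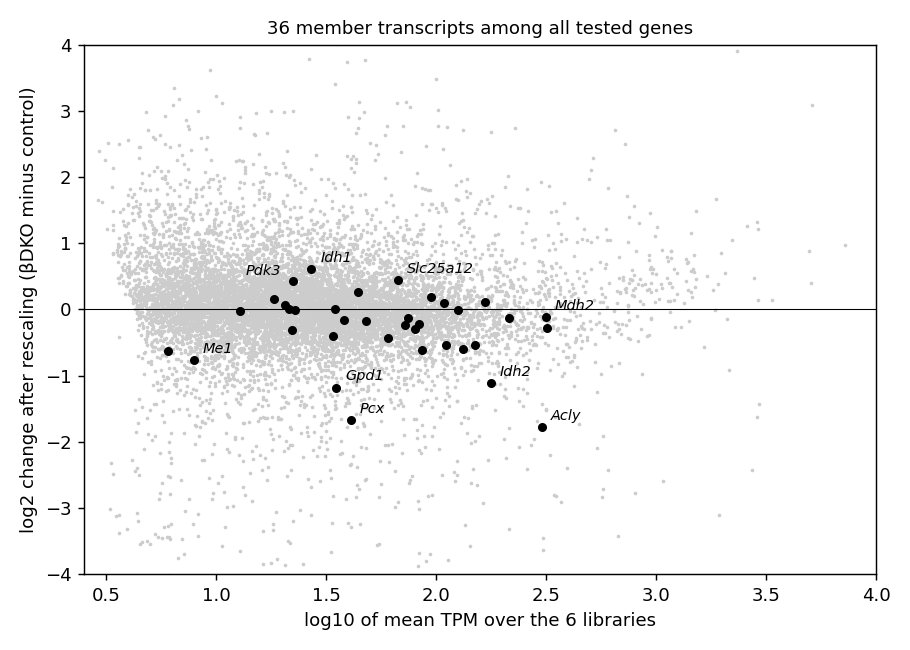
Log2 change after rescaling (vertical axis) against log10 of mean TPM over the 6 libraries (horizontal axis) for the genes tested; grey points are all genes, of which 65 lie outside the axes, and black points are the 36 tested transcripts of mitochondrial carbon metabolism. Acly (mean 303 TPM) lies far below 0, while most other black points lie near 0.

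Ratios of paired transcripts within a library do not depend on the scaling of the libraries. Of 14 pairs examined, 8 did not overlap between groups, each with an exact two-sided permutation p = 0.1 (0.175 adjusted over 14 pairs), the smallest that 3 against 3 samples allow. Among all single genes after rescaling, 31% were higher and 27% lower without overlap, so a count of 8 does not set these pairs apart. The share over arbitrary pairs of genes was not computed. The largest difference was in Idh1 to Idh2, at 0.0854, 0.0627 and 0.0742 in controls and at 0.249, 0.251 and 0.2496 in βDKO, a 3.40-fold increase of the ratio (log2 difference 1.77). Pcx to Pdha1, the carboxylase against the dehydrogenase at the pyruvate branch point, was 0.810 ± 0.0546 in controls and 0.303 ± 0.0267 in βDKO (SD, n = 3), lower by 2.68-fold. The ratio of Acly to Cs, the enzyme that splits citrate against the one that makes it, was 7.64 ± 0.754 and 3.003 ± 0.109, lower by 2.54-fold. Gpd1 to Gpd2 was 3.47 ± 1.28 and 1.27 ± 0.159, lower by 2.60-fold, and Idh2 to Idh3a was 5.23 ± 0.592 and 2.71 ± 0.0794, lower by 1.92-fold.

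The remaining 3 pairs without overlap differed by little, with log2 differences of 0.17 for Got1 to Got2, −0.17 for Mdh1 to Mdh2 and −0.23 for Glud1 to Got2. The 6 pairs that overlapped included Slc25a12 to Slc25a13, at 38.3 ± 13.8 and 50.6 ± 7.03 (SD, n = 3), and Suclg2 to Sucla2, at 0.508 ± 0.0632 and 0.452 ± 0.0859. The Me2 to Me3 ratio ran from 6.65 to 29.2 over the controls alone, with Me3 at 28 to 151 reads.

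**Figure D4:**
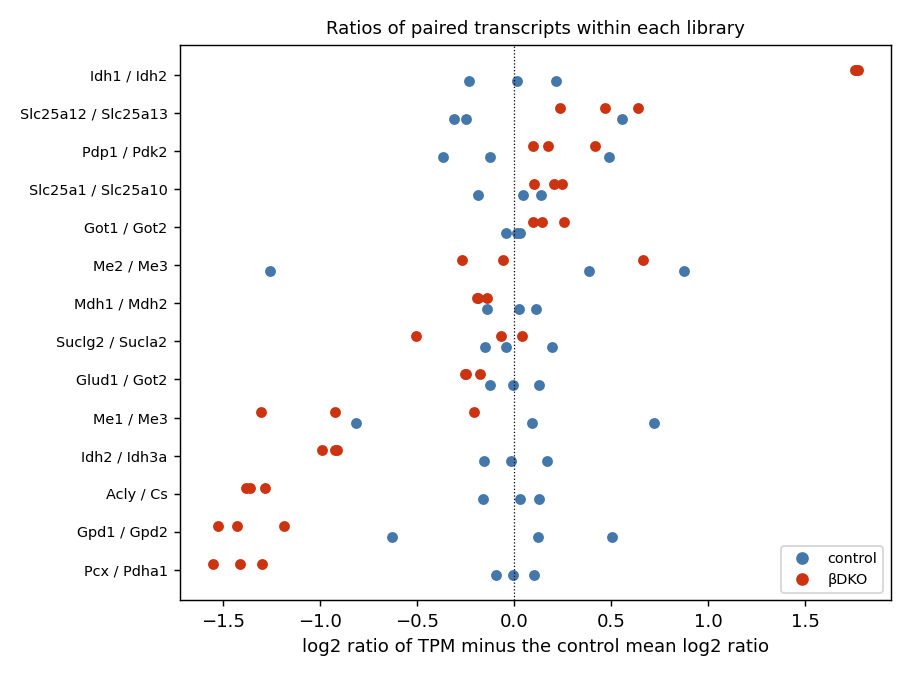
Log2 ratio of TPM of 14 transcript pairs in each library, minus the control mean log2 ratio (horizontal axis); blue points are controls and red points βDKO libraries. Idh1 / Idh2 lies far to the right in βDKO, by 1.77, and Pcx / Pdha1, Gpd1 / Gpd2, Acly / Cs and Idh2 / Idh3a lie to the left with no overlap.

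The 250 bases before the annotated start are shown because members of one pathway moved apart. They are those of the tested transcripts with the largest rise and fall, of Idh2 as the paralog of Idh1, and of Pcx. They come from RefSeq on GRCm38.p6, which shares the coordinates of mm10, and are written 5′ to 3′ on the strand of the gene, with capitals marking any match, on either strand, to the E-box CACGTG, to AGGTCA (bound by nuclear receptors), to TAATTA (a homeodomain core), to CCGGAAG (an ETS core) or to the CCAAT box.
Acly, chr11:100528001-100528250, minus strand: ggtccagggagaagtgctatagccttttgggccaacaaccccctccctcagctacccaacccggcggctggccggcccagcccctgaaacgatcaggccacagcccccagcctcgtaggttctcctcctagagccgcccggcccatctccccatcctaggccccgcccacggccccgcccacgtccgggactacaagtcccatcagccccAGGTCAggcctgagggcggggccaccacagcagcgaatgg
Pcx, chr19:4510222-4510471, plus strand: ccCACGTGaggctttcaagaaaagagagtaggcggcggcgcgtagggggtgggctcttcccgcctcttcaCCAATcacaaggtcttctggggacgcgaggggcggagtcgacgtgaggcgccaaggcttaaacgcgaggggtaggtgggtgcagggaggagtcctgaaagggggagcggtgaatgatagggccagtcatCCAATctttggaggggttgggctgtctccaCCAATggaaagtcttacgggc
Idh1, chr1:65186480-65186729, minus strand: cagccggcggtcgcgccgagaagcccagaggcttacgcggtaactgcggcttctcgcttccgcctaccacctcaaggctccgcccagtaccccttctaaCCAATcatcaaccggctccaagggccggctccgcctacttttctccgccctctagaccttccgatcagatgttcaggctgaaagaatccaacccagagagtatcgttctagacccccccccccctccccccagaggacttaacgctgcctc
Idh2, chr7:80115351-80115600, minus strand: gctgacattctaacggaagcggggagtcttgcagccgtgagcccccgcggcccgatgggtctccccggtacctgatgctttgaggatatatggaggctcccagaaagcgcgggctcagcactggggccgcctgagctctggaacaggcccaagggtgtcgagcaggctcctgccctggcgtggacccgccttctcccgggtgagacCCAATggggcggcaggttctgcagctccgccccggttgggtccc
Pcx and Idh1 each have another annotated start, whose 250 bases held no match. The Acly stretch held 1 AGGTCA, Idh1 and Idh2 1 CCAAT each, and Pcx 1 CACGTG and 3 CCAAT boxes. The E-box was present before at least 1 start of 5 of the 36 members with a promoter entry (Ogdh, Pcx, Pdk2, Slc25a1 and Slc25a13), with 7 of the members' 47 windows holding it, and in 6.02% of 32851 mouse promoter windows of this length. AGGTCA was present in 5 of the 47 windows and 14% of all windows, TAATTA in 3 and 4.84%, CCGGAAG in 2 and 6.91%, and CCAAT in 22 and 33.8%. Some windows of 1 gene overlap, as for Ogdh, so a match may be counted more than once. The letters are a description of these windows and not of binding. Members' windows were rich in CpG, with a median of 16 against 6 over all windows.

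Other genes of these pathways, outside the 40, were also examined. The counts of each pathway list below stand beside 81.4% higher and 4.61% lower among all genes tested on TPM. After rescaling the shares over all genes were 23.4% and 21.1%. Of 15 tested genes of the TCA cycle, succinate dehydrogenase and lipoate attachment, higher calls numbered 13 and lower calls 1 on TPM, against 1 and 5 after rescaling (median log2 change 0.72 and −0.02). Ogdhl, an alternative decarboxylating subunit to Ogdh, fell from 235 ± 8.35 to 171 ± 5.95 TPM (SD, n = 3; rescaled log2 −1.31, limma adjusted p = 4.01e-05). Pdp2, another pyruvate dehydrogenase phosphatase, was at 4.44 ± 0.841 and 12.8 ± 1.21 TPM (rescaled log2 0.61, limma adjusted p = 0.00577). It passed the expression filter only through the βDKO libraries, where it is high. Sdhd and Sdhc, membrane subunits of succinate dehydrogenase, were lower after rescaling (log2 −0.85 and −0.43), and Sdhc was higher on TPM.

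Genes that handle glutamine, alanine and amino groups included large changes in either direction. Of 9 tested, higher calls numbered 6 and lower calls 2 on TPM, against 1 and 4 after rescaling. Glul, glutamine synthetase, fell from 221 ± 11.6 to 74.1 ± 4.73 TPM (SD, n = 3; rescaled log2 −2.41, limma adjusted p = 2.24e-06), and Abat, GABA transaminase, from 31.8 ± 4.38 to 22.5 ± 1.86 TPM. Oat, ornithine aminotransferase, rose from 8.77 ± 3.52 to 91.6 ± 1.65 TPM (rescaled log2 2.51, adjusted p = 3.98e-05). Pck2, the mitochondrial PEP carboxykinase, was higher on TPM and lower after rescaling (log2 −0.50).

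Of 16 tested genes of branched-chain, odd-chain and ketone body entry, TPM gave 13 higher and 1 lower, and rescaling gave 4 and 9. Ivd, isovaleryl-CoA dehydrogenase, fell from 369 ± 101 to 204 ± 45.4 TPM (SD, n = 3), and Ppm1k, the phosphatase that activates branched-chain ketoacid dehydrogenase, rose from 7.24 ± 1.71 to 26.6 ± 0.686 TPM. Mccc1, a subunit of methylcrotonyl-CoA carboxylase, rose (rescaled log2 0.62), and Oxct1, which activates ketone bodies, was lower after rescaling only (log2 −0.88). Of 9 tested carriers for pyruvate, glutamate, nucleotides and phosphate, TPM gave 8 higher, and rescaling gave 2 higher and 4 lower. Slc25a33, a pyrimidine nucleotide carrier, was at 1.22 ± 0.914 and 6.57 ± 0.595 TPM and entered the test only through the βDKO libraries, where it is high, and Slc25a5, Mpc1 and Slc25a51 were called higher on TPM yet lower once rescaled.

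Of 6 tested genes of mitochondrial calcium uptake, 5 were higher on TPM and none after rescaling, where only Letm1 passed (lower, log2 −0.70). Among 8 tested regulators of mitochondrial and glucose-responsive transcription, TPM gave 6 higher and 1 lower, and rescaling gave 0 and 3. Mlxipl, which encodes the glucose-responsive factor ChREBP, fell from 266 ± 107 to 59.1 ± 6.04 TPM (SD, n = 3; rescaled log2 −2.92, limma adjusted p = 2.38e-05). Esrra and Tfam were lower after rescaling (log2 −0.52 and −0.39), Tfam being higher on TPM, and Gabpa had a rescaled change of 0.32 (adjusted p = 0.0756).

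Markers of other cells moved between the groups beside these results. The summed TPM of 18 immune markers was 122 to 222.5 in controls and 11.3 to 15.4 in βDKO, with Ms4a1 at 0 in all libraries, and 7 of the 18 were lower in every βDKO library than in every control. C1qa alone went from 131 ± 41.6 to 5.79 ± 1.66 TPM (SD, n = 3). For 10 α-cell markers the sum was 2391 to 5100 and 584.6 to 879.7, with 5 of the 10 lower throughout. The 4 markers of PP and ε cells summed to 1593 to 4021 and 615 to 898, and the 6 of δ cells to 2520 to 5003 and 1968 to 2542. The 8 ductal markers summed to 293 to 437 and 221 to 232, and the 19 acinar markers to 123 to 736 and 124 to 235, with control 1 highest. The 13 endothelial markers summed to 6.09 to 13.3 and 27.5 to 35.6, with 10 of the 13 under 1 TPM throughout and only Esam and Egfl7 higher in every βDKO library than in every control, the 9 of Schwann cells and neurons to 45.3 to 61.9 and 50.4 to 51.8, and all 10 of stellate cells and fibroblasts were under 1 TPM. Ptf1a of the acinar list, Gfap of the Schwann cell list and Pdgfra of the stellate list were at 0 throughout. Without control 1, the 4 falls and 3 rises on both scales were all called. Control 1 had the lowest immune sum of the controls (122), and the α-cell sums of controls 2 and 3 (4027 and 2391) still exceeded every βDKO sum. Leaving it out therefore does not address immune or α cells. The part of these other cells in the values of the 40 transcripts was not tested, and in sorted bulk samples fewer cells of a type cannot be told apart from less RNA per cell.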

How the data were processed

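RNA from 6 libraries of sorted β cells was sequenced, and the values used are TPM in 1 table deposited by the authors. The tools named, per the submitters' processing notes, include FastQC, Trimmomatic, HISAT2, HTSeq and DESeq2 with mm10; the sources used here do not give their settings, annotation or strand handling. Groups follow the sample labels. TPM + 1 was put on the log2 scale and tested with limma 3.58.1 in R 4.3.3 (robust empirical Bayes with trend, two-sided, Benjamini-Hochberg threshold 0.05) over the 10404 genes that reached 5 TPM in 3 or more libraries, as deposited and after division by median-of-ratios size factors (0.639 to 1.372). Fold changes on this scale understate changes of low genes. Ratios and shares were tested by exact permutation over the 6 libraries. Values were whole multiples of 1 read's worth in 16625 of 16625 rows above 0 in at least 2 libraries (tolerance 0.01). Many multiples were tried for each row, so this is a weak test, above all for rows above 0 in few libraries. These reads, known per gene only up to a common factor, gave relative depth and the input to limma-voom. Few reads limit precision for genes near 1 TPM. Of 24421 rows, 6614 were at 0 in all libraries and 27 bore dates in place of symbols and could not be matched. The members and lists were chosen with earlier results of these data known. Per-library values are given for members that passed on both scales, those at least 2-fold changed on either and the 3 most abundant, and from each other list up to 4 genes with the smallest adjusted p after rescaling. Alternatives were a pseudocount of 0.1, filters of 1 TPM or none, a replicate block, plain empirical Bayes, βDKO 1 and βDKO 2 averaged, each library left out, scaling without hormone transcripts and limma-voom, and, added after seeing the data, Pdk shares from reads per longest transcript. Promoters came from RefSeq (GRCm38.p6), gene positions from GENCODE M21.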

Additional observations from a re-analysis of the deposited data

How the results depend on the processing

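Acly, Pcx, Idh1, Slc25a12 and Pdk3 kept their direction and both calls in every alternative run. The counts of members called stayed within 1.5 times of those reported except for the lower calls on TPM, 4 as reported, which were 2 with βDKO 1 and βDKO 2 averaged and 2 to 4 with a library left out, the calls lost being those of Idh2 and Gpd1. With a library left out, higher calls on TPM were 23 to 28 (29 as reported), and after rescaling higher calls were 3 to 4 (3) and lower calls 9 to 13 (13). Same-numbered control and βDKO libraries had correlations of −0.079, −0.024 and 0.197 in their deviations from the group means. Differently numbered libraries gave −0.254 to 0.236. With 3 libraries per group these values cannot settle whether the numbers pair the libraries. The replicate block gave 28 higher and 4 lower calls among members in TPM, against 3 and 11 once rescaled.

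Changes near 0 reversed in sign without passing a test. Me1 on TPM was 0.008 with βDKO 1 and βDKO 2 averaged and −0.166 to 0.172 with a library left out. After rescaling, Pdk1 was 0.002 with a pseudocount of 0.1 and 0.002 with the average, Ogdh 0.008 with the average, and Dlat −0.030 without hormone transcripts. With a library left out, the rescaled ranges were −0.213 to 0.282 for Pdk1, −0.089 to 0.076 for Ogdh, −0.183 to 0.066 for Pdhx, −0.026 to 0.033 for Dlat, −0.034 to 0.013 for Idh3b and −0.026 to 0.151 for Me2. The log2 difference of Me2 to Me3 ran from −0.516 to 0.551, that of Pdp1 to Pdk2 was −0.122 with a pseudocount of 1, and the Pdk1 share differed by −4.37 to 4.20 percentage points. The cause was not tested. Of the single-gene values under alternatives, 842 kept direction and side of the threshold, 65 lost a call and 7 gained one. Depth limits Pdk4, Me3 and Slc25a13, which rest on 17 to 151 recovered reads per library.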

Other observations

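Nnt, the mitochondrial transhydrogenase that links NADH to NADPH, was chosen after its values were seen. It was at 8.44, 10.6 and 5.23 TPM in controls and at 21.2, 19.97 and 15.3 TPM in βDKO, higher on TPM (log2 1.16, limma adjusted p = 0.00237) with a rescaled change of 0.37 (adjusted p = 0.269). The C57BL/6J strain is known to carry a deletion in Nnt, and the labels give a mixed background; how alleles fell between the libraries was not tested. Ppargc1a, a coactivator of mitochondrial genes, was at most 0.0646 TPM in any library.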
